A study of Mus musculus with 12 samples.

Results

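Endogenous retroviruses of the ERVK and ERV1 families carried 877 of the 52530 open chromatin peaks measured in mouse hepatocyte nuclei. They were chosen from the deposited annotation as peaks that lie in a long terminal repeat (LTR) element of family ERVK (620 peaks) or ERV1 (257 peaks), leaving out elements named RMER19B, RMER1A, RMER1B and RMER1C. The rule uses no measured value, but it was set with earlier results of these data known.

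Endogenous retroviruses are the remains of retroviruses that once inserted into the germ line. An intact copy has an internal part, which encodes the viral proteins, between a pair of LTRs that hold the promoter, enhancers and polyadenylation signal of the virus. Most copies have recombined to a single LTR, which can still act as a promoter or enhancer. In mouse cells many copies are kept silent by DNA methylation and by KRAB zinc finger proteins, which bring the co-repressor TRIM28 (KAP1) and the histone methyltransferase SETDB1. The ERVK family holds the intracisternal A particles (IAP), the early transposons (ETn) and many older LTRs, and the ERV1 family holds gammaretroviruses such as the murine leukaemia viruses and the defective VL30 elements.

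ATAC-seq reads open chromatin through a transposase that inserts adapters where DNA is accessible. The nuclei came from the livers of 6 female HEP-INTACT mice, in which hepatocyte nuclei carry a tag that allows them to be pulled out on beads; strain background and age are not given in the labels. Of these mice 3 were fasted for 16 h from ZT12, the onset of the active phase, and 3 were fed ad libitum and killed at the matching hour. From each mouse 1 frozen and 1 fresh liver sample were sequenced, in 4 groups of 3: fasted frozen, fed frozen, fasted fresh and fed fresh.

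The libraries held between 3.69 and 14.5 (in units of 1e+06) reads in peaks, and the median member held between 36 and 166 reads per library, a counting error of 16.7% to 7.76%. No member was at 0 in any library. Of 10 hepatocyte marker genes 9 had a peak within 1 kb of their start, with normalized reads of 187 to 414 at the highest such peak of each gene. Such a peak was found at 0 of 7 macrophage, 0 of 7 endothelial, 0 of 6 lymphocyte, 1 of 6 stellate and 1 of 5 bile duct markers (91.5 and 98.4 normalized reads). Each library pools many nuclei, so a lower value in fewer nuclei and a lower value in every nucleus cannot be told apart. The part of other cell types in the differences below was not tested. Values are normalized reads, that is reads in the 200 bp window of a peak divided by 1 size factor per library, and differences are of log2(normalized reads + 1), with the standard error (SE). They understate the change of low peaks. A peak counts as called at an adjusted p under 0.05 by limma over all 52530 peaks, and positions are on mm10.

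A few members lie at the start of a transcript, where the LTR or internal sequence and the mapped start can be read together. Of the members 14 overlapped 12 promoter windows of RefSeq genes (250 bases before to 50 bases after the annotated start), of which 11 belong to long noncoding RNAs and 1, at Ablim1, to a protein-coding gene. These 4 are shown because an element, its transcript start and a measured difference or a known promoter motif fall together in them. They are copied from RefSeq on assembly GRCm38.p6, 5′ to 3′ on the strand of the transcript, and cover the part of the peak inside the window. Capitals mark matches, on both strands, to those of the 16 motifs searched that fix 6 or more letters. The 2 motifs of 5 letters, CCAAT and TGACG, are left in lower case.
RLTR48A at Gm30843: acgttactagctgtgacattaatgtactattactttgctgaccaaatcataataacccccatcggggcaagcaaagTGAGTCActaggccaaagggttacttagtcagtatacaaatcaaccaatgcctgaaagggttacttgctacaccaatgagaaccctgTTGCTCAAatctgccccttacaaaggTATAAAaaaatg
IAPEz-int at Gm51474: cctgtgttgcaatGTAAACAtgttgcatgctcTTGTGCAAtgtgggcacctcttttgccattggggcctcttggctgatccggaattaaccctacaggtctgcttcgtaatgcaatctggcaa
MMVL30-int at Gm45086: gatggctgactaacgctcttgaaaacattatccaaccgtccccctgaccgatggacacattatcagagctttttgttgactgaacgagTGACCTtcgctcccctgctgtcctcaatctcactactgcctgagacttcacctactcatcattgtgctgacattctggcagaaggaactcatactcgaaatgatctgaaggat
RMER17C at Ablim1: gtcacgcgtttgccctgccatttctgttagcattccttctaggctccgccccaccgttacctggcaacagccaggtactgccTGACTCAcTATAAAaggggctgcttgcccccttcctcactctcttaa

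The RLTR48A sequence (chr6:141875831-141876031, plus strand) holds, reading towards the start of the noncoding RNA Gm30843, an AP-1 match (TGAGTCA) whose first base is 163 bases before the start, a C/EBP match (TTGCTCAA, for TTGCNNAA) at 76 and the letters of a TATA box (TATAAA) at 50. The IAP sequence (chr7:26055334-26055456, plus strand) lies beside Cyp2b13, a cytochrome P450 gene, and holds a FOXA match (TGTTTAC, here read on the other strand as GTAAACA) at 60 and a C/EBP match (TTGTGCAA) at 41. The VL30 sequence (chr7:48740497-48740697, minus strand) holds a nuclear receptor motif (AGGTCA, here TGACCT) at 142. The RMER17C sequence at Ablim1, which encodes an actin-binding LIM protein (chr19:57274790-57274918, minus strand), has an AP-1 match (TGACTCA) at 168 and TATAAA at 160. Among all 32851 RefSeq promoter windows of the same length, 3.65% hold the FOXA letters, against 3 of the 12 windows with a member. C/EBP letters were in 3 of the 12 windows and in 10.8% of all, AP-1 (TGANTCA) in 2 and 7.81%, the nuclear receptor letters in 4 and 16.3%, and TATAAA in 4 and 13.6%. The letters of a palindromic glucocorticoid receptor site (ACANNNTGT) were in none of the 12 and in 6.85% of all, and the CREB site (TGACGTCA) in none and in 1.79%. CCAAT, the NFY letters, was in 4 and in 37.4%, TGACG, part of the CREB site, in 3 and in 20.8%, and the STAT letters (TTCNNNGAA) in 2 and in 8.30%. The other 6 motifs were in none of the 12, namely the nuclear receptor direct repeat with 1 base between (0.0396% of all windows), the palindromes of HNF1 (0.00913%) and NFI (0.0365%), the CTCF core (0.183%), SREBP (TCACNCCAC, 1.24%) and ETS (CCGGAAGT, 3.89%). With 12 windows these shares are descriptions, and a match is not a bound site.

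Most members were annotated to terminal repeats. The 877 annotations carry 226 element names, and 712 peaks have names of terminal repeats and 165 names of internal parts (ending in -int). Intergenic DNA held 573 and introns 304, and 9 lay within 1 kb of a gene start. Distances to a gene start, here and below, are those of the deposited annotation. It lacks some of the RefSeq starts above, where 14 members overlapped a window. The median distance to a gene start was 18.3 kb, against 17.6 kb for all peaks beyond 1 kb of a start. They were spread over 754 nearest genes, with 70 on chromosome 4, the most of any, 20 on X and none on Y. Neighbouring members were not always separate: 62 pairs of neighbours began within 1 kb of each other, and in 36 of these pairs the windows overlapped and so share reads.

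Members were of moderate height. The median member had 87.0 normalized reads on average over the 12 libraries (quartiles 63.1 and 129), against 97.8 for all peaks beyond 1 kb and 114.0 for all peaks. ERV1 peaks were a little higher (median 97.5) than ERVK peaks (median 82.9). The highest was an RMER20C_Mm element in an intron of Lrpprc, a regulator of mitochondrial mRNA (chr17:84738486-84738686), with a mean of 393. It was followed by an MLTR73 element in an intron of 2010106C02Rik (chr17:86464690-86464890) with 346, and an RLTR20C2_MM element 8.71 kb from Apol8, an apolipoprotein L gene (chr15:77746465-77746665), with 329. Next came an ERVB7_1-LTR_MM element 25.6 kb from Selenop (chr15:3245115-3245315), the gene of the liver-made selenium carrier of plasma, with 328, and an MLTR11B element in an intron of Rufy3 (chr5:88587604-88587804) with 321. Together the members took 1.18% ± 0.0162 of the normalized reads in fasted fresh libraries and 1.27% ± 0.0161 in fed fresh ones (SD, n = 3 each). In frozen liver they took 1.12% ± 0.0156 in fasted and 1.20% ± 0.0209 in fed libraries.

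The first comparison asks how a 16 h fast changed accessibility at these elements. With the fresh and the frozen library of each mouse averaged (3 mice against 3), 118 members rose (13.5%) and 236 fell (26.9%), while 523 were not called. Over all peaks 16.5% were called higher and 18.1% lower, and over peaks beyond 1 kb of a gene start 14.8% and 25.4%. The median difference of the members was -0.09, against 0.05 for all peaks and -0.05 beyond 1 kb. So the share that fell was above that of all peaks and close to that of peaks away from gene starts. Differences of more than 1 on the log2 scale were called upward at 13 members and downward at 77 of 877, where 1.53% and 5.62% of all peaks passed. Of the 33996 peaks beyond 1 kb, 699 passed upward and 2831 downward. Setting each library to a common median at peaks within 1 kb of gene starts (near-start scaling) moved the median of all peaks to -0.08 and the split of members to 62 higher and 311 lower. All 6 fasted libraries lay on 1 side of all 6 fed libraries at 118 members (34 higher, 84 lower), 13.5% of them, where 12.9% of all peaks do. Without fasted mouse A, fed mouse A or fed mouse B the count of higher members was 65, 77 or 73.

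**Figure D1:**
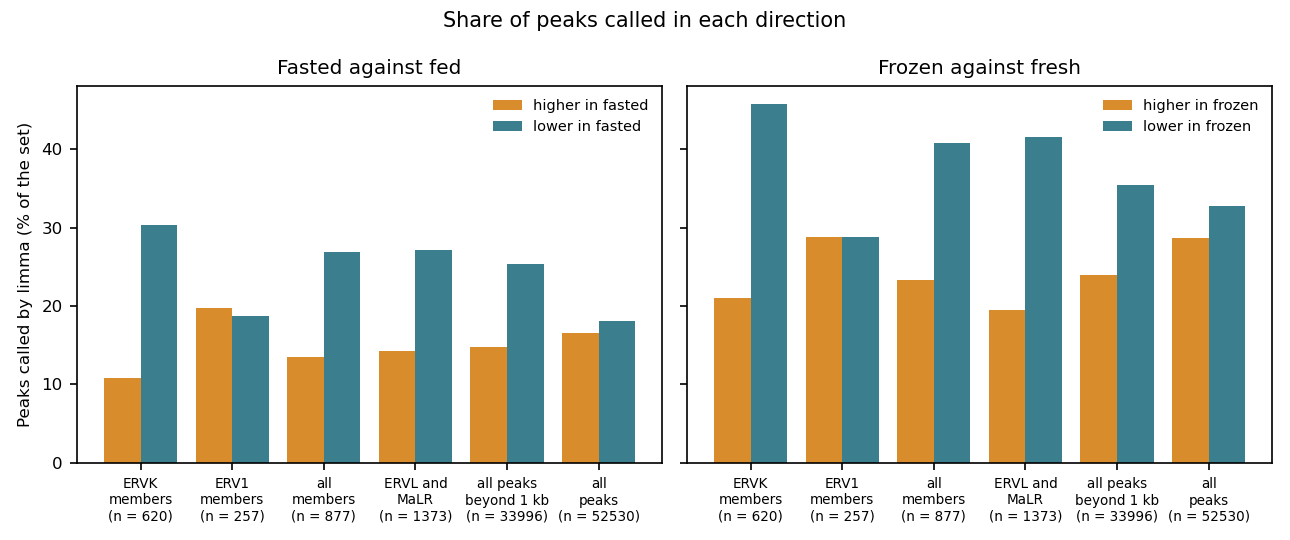
Share of peaks (%) called higher (orange) or lower (teal) by limma in fasted against fed mice (left panel) and in frozen against fresh liver (right panel), for ERVK and ERV1 members, for ERVL and MaLR peaks and for the background sets, with the number of peaks under each pair of bars. In both panels ERVK members have the larger share of lower calls (30.3% and 45.8%), while ERV1 members have nearly equal shares, except that under near-start scaling fasting gave 30 higher and 65 lower ERV1 calls.

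The counts of the 2 families are given side by side, and their difference was not tested. ERVK peaks rose at 67 and fell at 188 of 620 (median -0.13), whereas ERV1 peaks rose at 51 and fell at 48 of 257 (median 0.04). The ERV1 median was -0.09 under near-start scaling, with 30 higher and 65 lower, so the sign of the ERV1 median depends on the scale. ERVL and MaLR elements, the other large LTR families, rose at 195 and fell at 373 of 1373 peaks (median -0.09). The 75 RMER19B and RMER1 peaks, which the choice of members leaves out, rose at 7 and fell at 40 (median -0.43). Internal parts rose at 25 and fell at 40 of 165 (median 0.01), and terminal repeats rose at 93 and fell at 196 of 712 (median -0.10). Intronic members rose at 29 and fell at 89 of 304 (29.3% lower), and intergenic ones rose at 89 and fell at 147 of 573 (25.7% lower). Among peaks away from gene starts 25.4% fell. Shares for intronic or intergenic peaks in general were not counted, and the difference between these members was not tested.

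Much of the excess of lower calls sat in the lower peaks. Members above the members' own median level rose at 71 and fell at 77 of 438 (median -0.01), and those at or below it rose at 47 and fell at 159 of 439 (median -0.21). Other peaks beyond 1 kb followed the same split, with 16.5% higher and 20.4% lower above that level and 12.6% and 32.2% at or below it. Among the stronger peaks ERV1 rose at 37 and fell at 17 of 150, and ERVK rose at 34 and fell at 60 of 288. Among the weaker ones ERV1 rose at 14 and fell at 31 of 107, and ERVK rose at 33 and fell at 128 of 332. The mean level is thus a measure that moves with the direction of the calls, and its part in them was not tested.

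The member that fell most among the stronger peaks was an IAP LTR. The IAP1-MM_LTR peak in an intron of Acot7, an acyl-CoA thioesterase gene (chr4:152230458-152230658, 30.7 kb from the start), had 38.7, 53.0 and 37.3 normalized reads in fasted fresh libraries, against 235, 262 and 194 in fed fresh ones. In frozen liver it had 25.5, 28.8 and 17.8 in fasted and 201, 237 and 170.0 in fed libraries. The highest fasted library, at 53.0, was below every fed one, and the log2 difference was -2.72 ± 0.17 (SE; adjusted p = 5.47e-05 by limma). The other IAP1-MM_LTR peaks were less changed, with differences of -0.71 and -0.69, both called, and -0.27, not called.

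An ERV1 element lost nearly as much. The MER67A peak 6.36 kb upstream of Mcm5, a subunit of the replicative helicase (chr8:75103054-75103254), had 56.3, 84.7 and 22.6 normalized reads in fasted fresh libraries and 265, 279 and 242 in fed fresh libraries. Frozen libraries gave 41.0, 68.0 and 17.8 when fasted and 276, 279 and 245 when fed. Fed values were close together, fasted mouse C was the lowest in both preparations, and the groups did not overlap. The difference was -2.62 ± 0.36 (SE; adjusted p = 0.000828 by limma).

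Of the 438 stronger members 12 fell by more than 1 on the log2 scale, where 662 of 19148 other peaks beyond 1 kb above that level did. Of the 12, 10 had no overlap between fasted and fed libraries, and the next 4 of these 10 by size follow. Over all peaks of any level 12.9% had no overlap, in either direction, but the 12 were already selected for large called falls. The share without overlap among other peaks with such falls was not counted. MER57-int, 31.9 kb from Trio (chr15:28057626-28057826), had 11.1 to 76.9 (median 51.0) normalized reads in the 6 fasted libraries and 83.2 to 180.2 (median 141) in the 6 fed ones, a difference of -1.71 ± 0.23 (SE; adjusted p = 0.000675 by limma). RLTR17D_Mm, 15.1 kb from the selenoprotein gene Selenot (chr3:58561463-58561663), had 24.5 to 94.5 (median 59.6) in fasted and 96.4 to 193 (median 148) in fed libraries (-1.36 ± 0.15). At both peaks the frozen libraries of each feeding state were below the fresh ones. RMER17B, 190 kb from the co-repressor gene Tle1 (chr4:72010403-72010603), had 55.6 to 146 (median 84.9) in fasted and 151 to 295 (median 231) in fed libraries (-1.35 ± 0.15), and its highest fasted library came within 5 reads of its lowest fed one. RMER6A, 16.9 kb from Gmnn, the gene of the replication inhibitor geminin (chr13:24778738-24778938), had 37.8 to 73.8 (median 52.6) in fasted and 100.3 to 158 (median 131) in fed libraries (-1.33 ± 0.19).

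Of the 71 stronger members that rose, 17 had no overlap between fasted and fed libraries, a share not counted for other peaks of that level. Of the 6 named among these 17 for the largest rises 5 were ERV1. The exception, an RLTR12BD_Mm element 28.3 kb from the nucleolar gene Nifk (chr1:118350016-118350216), rose most, with 128, 156 and 109.6 normalized reads in fasted fresh and 64.8, 39.8 and 61.8 in fed fresh libraries. In frozen liver it had 165, 187 and 136 in fasted and 54.8, 47.8 and 65.7 in fed libraries. Every fasted library was above every fed one, and the difference was 1.38 ± 0.17 (SE; adjusted p = 0.000506 by limma).

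All 3 RLTR48A peaks of the table, ERV1 LTRs, rose, where 16.5% of all peaks did. The one whose sequence is given above, at the start of the noncoding RNA Gm30843 and 19.7 kb upstream of the organic anion transporter gene Slco1a4 (chr6:141875831-141876031), had 117, 120.0 and 119 normalized reads in fasted fresh libraries, against 73.7, 81.0 and 40.1 in fed fresh ones. Frozen libraries gave 169, 161 and 129 in fasted and 65.5, 89.2 and 49.1 in fed mice. The 3 fasted fresh values lay within 4 reads of each other and above all fed values, and the difference was 1.06 ± 0.20 (SE; adjusted p = 0.00393 by limma). The copy 69.8 kb from Ube2e2, a ubiquitin-conjugating enzyme gene (chr14:18963992-18964192), had 111 to 234 (median 142) in fasted and 45.1 to 97.7 (median 76.3) in fed libraries (1.03 ± 0.13 (SE; adjusted p = 0.000532 by limma)). The third copy differed by 0.76 ± 0.07.

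The other 3 of the 6 named rises were in internal MERV1 sequence and in RMER5. MERV1_I-int 206 kb from Mir682 (chr13:75439185-75439385) had 126 to 157 (median 148) normalized reads in fasted and 64.0 to 97.6 (median 77.2) in fed libraries (0.89 ± 0.12). A second MERV1_I-int peak, 49.7 kb from Mir6951 (chr15:38440714-38440914), had 164 to 284 (median 202) and 102 to 154 (median 117) (0.77 ± 0.13). RMER5 6.42 kb from Gatd1 (chr7:141420446-141420646) had 156 to 206 (median 176) in fasted and 80.6 to 115 (median 101) in fed libraries (0.88 ± 0.11). At each of the 3 peaks the lowest fasted library was above the highest fed one. The nearest gene is given as a landmark and need not be one that the element regulates.

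**Figure D2:**
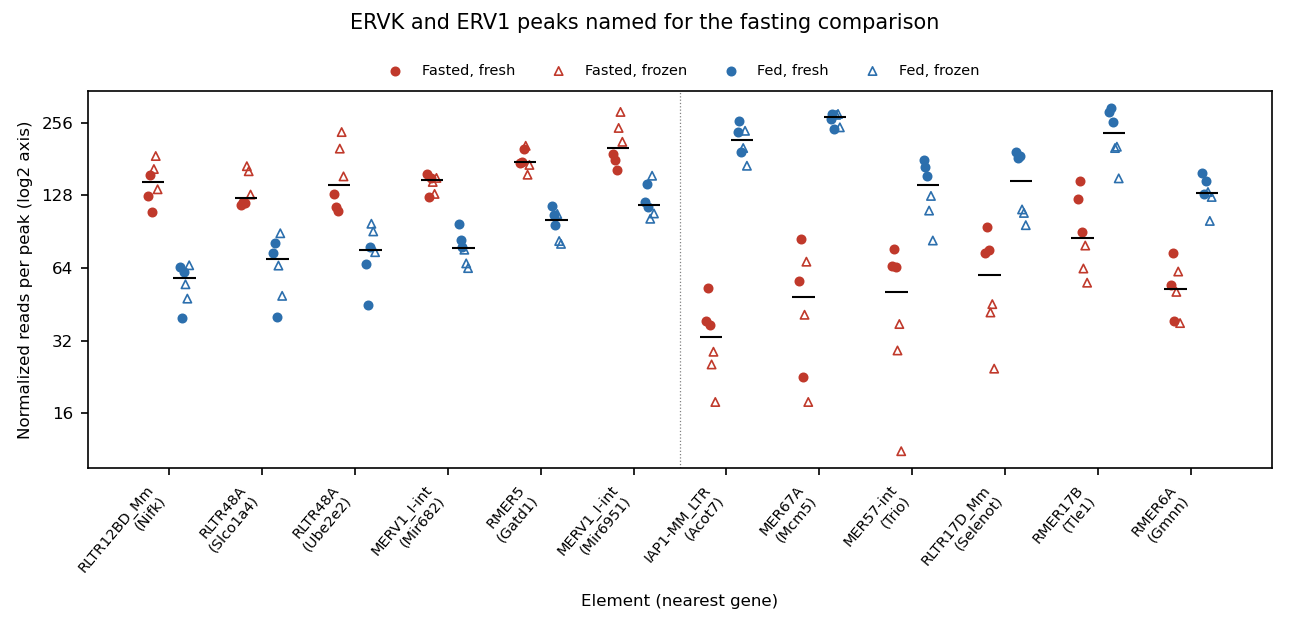
Normalized reads per peak (log2 axis) in the 6 fasted (red, left of each pair) and 6 fed (blue) libraries at the 12 stronger peaks named for the fasting comparison, with filled circles for fresh and open triangles for frozen liver and a black line at the median of the 6. The 6 peaks left of the dotted line were higher and the 6 right of it lower in fasted mice, and fasted and fed libraries do not overlap at any of them.

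Of the 5 peaks with the highest level only RLTR20C2_MM near Apol8 was called for fasting, with 254 to 304 (median 278) normalized reads in fasted and 323 to 431 (median 376) in fed libraries (-0.46 ± 0.06 (SE; adjusted p = 0.000935 by limma)). Fasted and fed libraries of this peak did not overlap. The other 4 differed by -0.07 to 0.11. By the deposited annotation, which lacks some RefSeq starts treated below, the called members nearest to a gene start were a weak MMERVK10C-int peak 346 bp from the claudin-like gene Cldn34c1 (mean level 58.7; 0.62 ± 0.19 (SE; adjusted p = 0.0329 by limma)) and an RLTR19C peak 836 bp from Timd2, a gene of the TIM receptor family (mean level 52.9; -0.91 ± 0.24 (SE; adjusted p = 0.0161 by limma)). Neither call was firm: the Cldn34c1 peak lost it under near-start scaling (adjusted p = 0.0663) and in 4 of the 6 fits without 1 mouse (adjusted p of 0.0612 to 0.105), and the Timd2 peak without fed mouse A or B (adjusted p of 0.0653 and 0.0633).

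At the level of element names, the direction was mixed in most. Of 63 names with 5 or more peaks, which hold 545 members, 16 had lower calls and no higher one, 9 had higher calls and no lower one, 33 had both and 5 had none. The fasting median was below 0 in 32 of 45 ERVK names and 11 of 18 ERV1 names. Over all peaks 16.5% were called higher and 18.1% lower, and over peaks beyond 1 kb of a gene start 14.8% and 25.4%. RMER6C (5 lower of 7, median -0.75), RMER20C_Mm (4 lower of 7, median -0.54), RMER6A (6 lower and 1 higher of 15, median -0.51) and RMER12 (5 lower and 2 higher of 11, median -0.36), all ERVK LTRs, were among the lowest. RLTR33 fell at 5 of 10 peaks with none higher (median -0.24), and ERVB7_2B-LTR_MM fell at 6 and rose at 1 of 18 (median -0.35). RLTR12BD_Mm (3 higher and 1 lower of 7, median 0.33), RMER12B (3 higher of 5, median 0.34) and MERV1_I-int (5 higher and 3 lower of 15, median 0.21) were at the other end. Names with many peaks and few calls were MLTR14 (2 higher and 3 lower of 21) and ERVB7_1-LTR_MM (none called of 13, differences from -0.31 to 0.23).

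**Figure D3:**
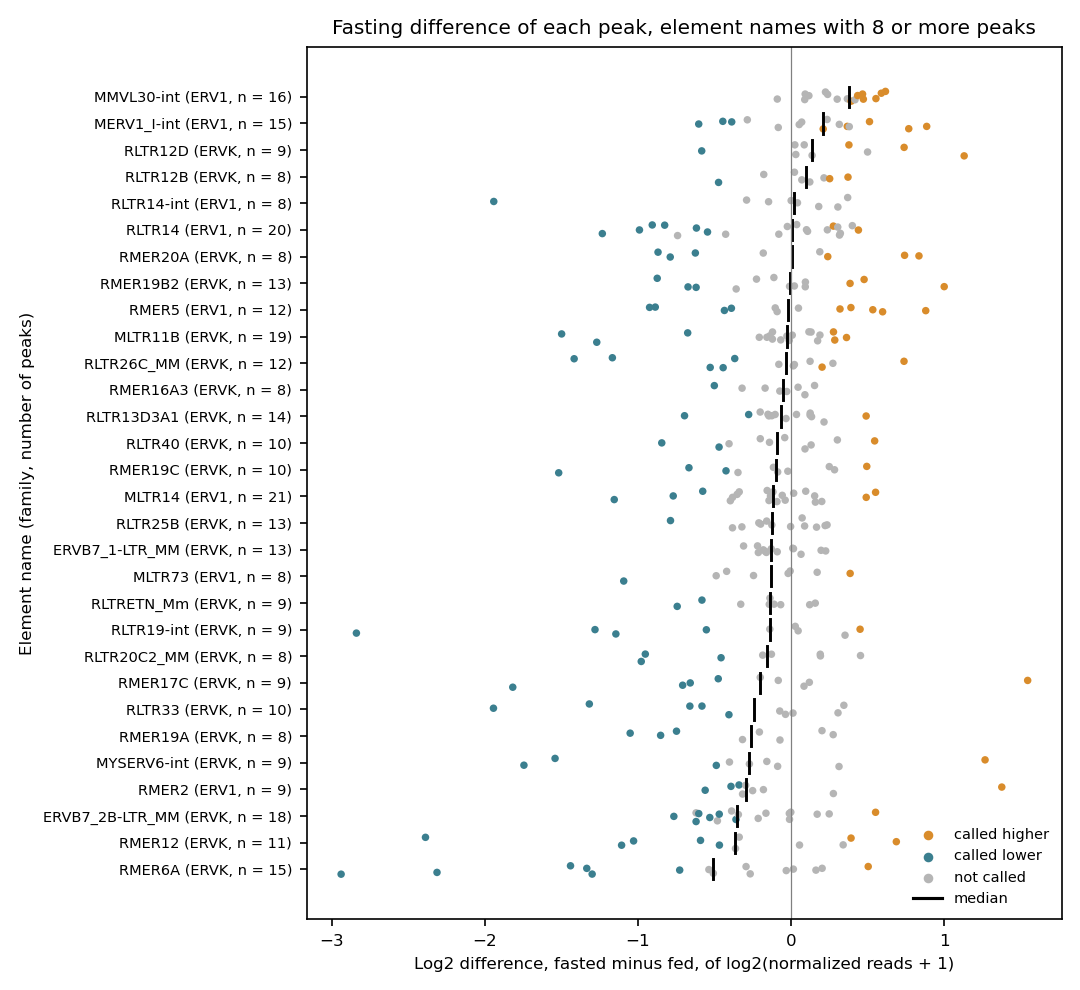
Log2 difference of each peak in fasted minus fed mice (horizontal axis) by element name, for names with 8 or more peaks, ordered by their median (black line). Orange points were called higher, teal points lower and grey points were not called. MMVL30-int at the top has a median of 0.38 and no lower call, and RMER6A at the bottom has a median of -0.51 and points down to -2.94.

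The VL30 elements stood at the top of that order. VL30s are mouse retrotransposons that lack functional viral genes and are packaged by murine leukaemia viruses. The 16 MMVL30-int peaks lay on 11 chromosomes, 13 in intergenic DNA and 3 in introns, none within 1 kb of a gene start of the deposited annotation. In fasted mice 7 rose and none fell (median 0.38), where 16.5% of all peaks rose and 18.1% fell. Of the 16 differences 15 were above 0. The highest was at the peak 26.0 kb from Vmn1r66, a vomeronasal receptor gene (chr7:10249208-10249408), with 139.8, 162 and 128 normalized reads in fasted fresh and 127, 112 and 126 in fed fresh libraries. In frozen liver it had 115, 111 and 131 in fasted and 70.3, 44.6 and 64.8 in fed libraries. The groups were apart in both preparations, in fresh liver by less than 1 read, and the difference was 0.62 ± 0.12 (SE; adjusted p = 0.00477 by limma). The peak near Cpxcr1 on X had 116 to 151 (median 137) in fasted and 70.1 to 103 (median 88.5) in fed libraries (0.59 ± 0.10 (SE; adjusted p = 0.00255 by limma)), with no overlap. The peak at the start of Gm45086, whose sequence is given above, had 90.7 to 118 (median 102) in fasted and 57.3 to 96.9 (median 76.1) in fed libraries (0.43 ± 0.11 (SE; adjusted p = 0.013 by limma)), which do overlap.

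How many VL30 peaks were called depended on the libraries and the scale, but none was called lower in any fasting fit that was run. The count was 4 without fed mouse B and between 5 and 7 without any other mouse, and 5 under near-start scaling, 9 under quantile normalization and 4 of 16 in fresh and 7 of 16 in frozen liver alone. With 1 mouse left out the fresh count was 1 to 4 and the frozen count 1 to 6. Copies of VL30 are nearly alike and 2 of the windows, both near B3galnt1, overlap, so reads may be shared between copies and the 16 peaks are not 16 independent measurements. How reads with several matches were placed is not given in the sources used here.

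**Figure D4:**
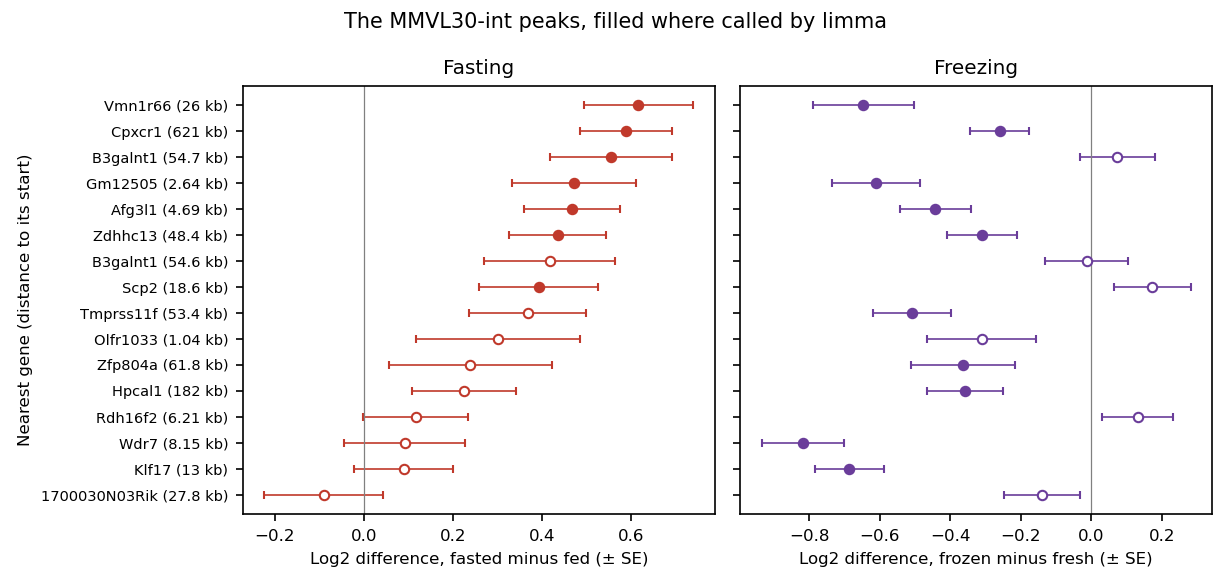
Log2 difference (± SE) of the 16 MMVL30-int peaks for fasted minus fed mice (left panel) and frozen minus fresh liver (right panel), in order of the fasting difference, labelled by the nearest gene and the distance to its start. Filled points were called by limma: 7 higher by fasting, 10 lower by freezing.

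RLTR44C, an ERVK LTR, fell at 4 of its 5 peaks, and these 4 lie in the Cyp2c cluster of chromosome 19, whose genes encode cytochrome P450 enzymes of drug and fatty acid metabolism. Over all peaks 18.1% fell, and over peaks beyond 1 kb of a gene start 25.4%. This element name was singled out after its values were seen. The peak nearest to Cyp2c67 (chr19:39644614-39644814) had 149, 146 and 134 normalized reads in fasted fresh and 232, 212 and 202 in fed fresh libraries, and 135, 136 and 145 in fasted frozen and 222, 212 and 205 in fed frozen libraries. All fasted values were below all fed ones (-0.60 ± 0.07 (SE; adjusted p = 0.000495 by limma)). A peak near Cyp2c40 (chr19:39811668-39811868) had 64.5 to 76.4 (median 67.5) in fasted and 127 to 182 (median 161) in fed libraries (-1.19 ± 0.11 (SE; adjusted p = 0.000169 by limma)), a second one near Cyp2c40 differed by -0.95 ± 0.14 and the one near Cyp2c69 by -0.95 ± 0.14. The fifth peak, on chromosome 2, differed by -0.37 ± 0.16 (SE; adjusted p = 0.088 by limma) and was not called. The Cyp2c genes arose by duplication, so the elements between them are also near copies and may share reads.

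Of the 14 members at RefSeq starts, 4 rose and 1 fell with fasting, where 19.3% of the 10968 peaks of the table that overlap such a window rose and 3.77% fell. Besides RLTR48A and VL30, the IAPEz-int peak at Gm51474 had 55.6, 73.2 and 56.5 normalized reads in fasted fresh and 44.4, 41.2 and 48.6 in fed fresh libraries, and 144, 159.5 and 138 in fasted frozen and 84.6, 86.0 and 115 in fed frozen ones. Within each preparation its fasted values were above its fed values, and frozen values were above fresh ones. Its fasting difference was 0.54 ± 0.14 (SE; adjusted p = 0.0152 by limma), and its freezing difference 1.15 ± 0.11. A MER67C peak at the start of the noncoding RNA Gm52192, 55.4 kb from Selenop, differed by 0.87 ± 0.20 (SE; adjusted p = 0.00862 by limma), and an RLTR9A3B peak at Gm40822 by -1.05 ± 0.18 (SE; adjusted p = 0.00257 by limma). The RMER17C peak at Ablim1 was not called (-0.20 ± 0.09 (SE; adjusted p = 0.107 by limma)).

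Metabolic genes known to respond to fasting were looked at through the members annotated to them. Of 116 genes of fasting and hepatocyte function listed for this purpose, 114 had a peak, and 11 of their 1035 peaks, at 7 genes, were members (1.06%, against 1.67% of all peaks). Fasting was called at 1 of the 11, where 23.3% of the 1035 peaks rose and 21.8% fell. The called member was an RLTR34B_MM peak 23.6 kb from G6pc, the gene of glucose-6-phosphatase, the last step of glucose release (chr11:101391233-101391433). It had 92.3, 89.9 and 88.1 normalized reads in fasted fresh and 72.8, 55.8 and 78.2 in fed fresh libraries, and 141, 178 and 142 in fasted frozen and 122, 97.2 and 131 in fed frozen ones. Fasted values were higher within each preparation, and the difference was 0.40 ± 0.13 (SE; adjusted p = 0.0403 by limma). The call was lost under near-start scaling (0.27, adjusted p = 0.122) and in 4 of the 6 fits without 1 mouse (adjusted p of 0.0682 to 0.117). The members nearest to Arg1, Cyp8b1, Insig1, Cyp2b10, Mup3 and Mup20 differed by -0.35 to 0.13 and were not called.

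In fresh liver alone 71 members rose and 208 fell with fasting, where 11.4% of all peaks rose and 16.1% fell. In frozen liver alone 95 rose and 188 fell, where 12.8% and 15% of all peaks did. The 2 preparations come from the same mice, so they are not independent. Called in both were 50 rises, 70.4% of the fresh list and 52.6% of the frozen list, and 148 falls, 71.2% and 78.7%. No member was called in opposite directions. These overlaps were not counted over all peaks, so whether they are particular to the members was not tested. The authors' deposited table gives an adjusted p under 0.05 for 242 members in fresh liver (59 higher, 183 lower), and limma called 240 of them in the same direction. In frozen liver the authors' deposited table gives 306 members (103 higher, 203 lower), of which limma called 274, all in the same direction. Those counts are 27.6% and 34.9% of the members, where the authors' deposited table calls 23.1% and 29.5% of all peaks. Near-start scaling gave 43 higher and 280 lower in fresh and 46 and 258 in frozen liver. The count of higher members in fresh liver was 41 without fasted mouse A and 46 without fed mouse A or fed mouse B. In frozen liver it was 55 without fasted mouse A, 53 without fed mouse B and 63 without fed mouse C, and the count of lower members was 110 without fed mouse B.

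Whether the fasting difference depended on the preparation was tested as an interaction. By limma 0 of the 877 members, and 0% of all peaks, passed in either direction. At an unadjusted p under 0.05 there were 43 members, against 5.14% of all peaks. That fit does not pair the 2 libraries of a mouse. In the simulated data described in the section on processing, the interaction test recovered 22% of 1.5-fold and 80% of 2-fold changes. Smaller differences could thus be missed, and the absence of calls does not show that fasting acted alike in both preparations. With the mouse as a replicate block 0 members and 0% of all peaks passed as well, and at an unadjusted p under 0.05 there were 130 members, against 11.4% of all peaks. The IAP1-MM_LTR peak near Acot7, for instance, differed by -3.04 ± 0.22 in frozen and -2.40 ± 0.16 in fresh liver (interaction adjusted p = 0.967 by limma).

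The second comparison asks what freezing the liver before nuclei were taken did to the same elements. Over the 12 libraries, with feeding state as a covariate, 204 members were higher (23.3%) and 358 lower (40.8%) in frozen liver. Over all peaks the shares were 28.7% and 32.8%, and over peaks beyond 1 kb of a gene start 23.9% and 35.5%. The median difference of the members was -0.15, against -0.05 for all peaks and -0.11 for those beyond 1 kb of a gene start. ERVK peaks were higher at 130 and lower at 284 of 620 (median -0.23), and ERV1 peaks were higher at 74 and lower at 74 of 257 (median -0.02, or 0.06 under quantile normalization). Differences beyond 1 on the log2 scale were upward at 23 members and downward at 57 of 877, where 1.91% and 3.34% of all peaks passed. Of the 33996 peaks beyond 1 kb, 685 passed upward and 1434 downward. Frozen and fresh libraries did not overlap at 216 members (105 higher, 111 lower), or 24.6%, where 26.9% of all peaks did not. Freezing counts, SE and adjusted p, here and below, come from a fit that does not pair the 2 libraries of a mouse. Counts with the letter as replicate block are given in the closing section on processing.

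The level of a peak again moved with the direction. Members above their median level were higher in frozen liver at 161 and lower at 124 of 438 (median 0.06), and those at or below it were higher at 43 and lower at 234 of 439 (median -0.38). Other peaks beyond 1 kb gave 34.1% higher and 27.4% lower above that level, and 10% and 46.3% at or below it. Without the lowest 25% of peaks the counts of members were 183 and 155, and their median was 0.03. Frozen libraries also held fewer reads on average (group means of 6.86 and 7.25, against 8.70 and 10.9 in fresh groups, in units of 1e+06), and the part of depth in these counts was not tested.

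Among the stronger members the largest gain in frozen liver was at an LTRIS_Mus element, an ERV1 LTR, 113 kb from the neuritin gene Nrn1 (chr13:36621036-36621236). It had 319, 290.3 and 300.4 normalized reads in frozen fasted and 207, 256 and 255 in frozen fed libraries, against 72.6, 69.1 and 73.5 in fresh fasted and 57.7, 67.7 and 59.8 in fresh fed ones. Every frozen library held more than 2 times the reads of any fresh one, and the difference was 2.0 ± 0.08 (SE; adjusted p = 3.90e-11 by limma). A weaker RLTR33 peak near Brox gained more (2.27 ± 0.25). The window beside the LTRIS_Mus peak (chr13:36621168-36621368) overlaps it, shares its reads and differed by 1.36 ± 0.07. Of the 7 LTRIS_Mus peaks 4 were higher in frozen liver and none lower (median 0.38), where 28.7% of all peaks were higher and 32.8% lower.

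The other gains were spread over both families. MER57C2 15.5 kb from Gucd1 (chr10:75501762-75501962) had 148 to 243 (median 197) normalized reads in frozen and 43.8 to 89.3 (median 73.5) in fresh libraries (1.52 ± 0.13 (SE; adjusted p = 3.34e-08 by limma)). ETnERV-int, internal sequence of an early transposon, 4.27 kb from the olfactory receptor gene Olfr1036 (chr2:86070333-86070533), had 175 to 258 (median 224) and 51.8 to 99.2 (median 88.2) (1.49 ± 0.11 (SE; adjusted p = 6.30e-09 by limma)), and this name was higher in frozen liver at 5 of its 7 peaks with none lower (median 0.74). RLTR19 in an intron annotated 46.2 kb from Pcnx4 (chr12:72490009-72490209) differed by 1.33 ± 0.11, and RLTR12D in an intron of F11, the coagulation factor XI gene (chr8:45254341-45254541), by 1.30 ± 0.10. At each of these peaks the lowest frozen library was above the highest fresh one. The strong ERVB7_1-LTR_MM peak near Selenop had 400.1 to 441 (median 413) in frozen and 201 to 274 (median 239.5) in fresh libraries (0.80 ± 0.06 (SE; adjusted p = 1.62e-08 by limma)) without a fasting difference (0.01 ± 0.07).

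Losses in frozen liver were all ERVK among the 6 named. RLTR26, 80.4 kb from the nuclease gene Eepd1 (chr9:25401058-25401258), had 52.8, 59.3 and 35.6 normalized reads in frozen fasted and 83.4, 94.0 and 75.3 in frozen fed libraries, against 131, 136 and 114 in fresh fasted and 193, 173 and 185 in fresh fed ones. The preparations did not overlap, and fasted values were below fed values within each (-1.25 ± 0.12 (SE; adjusted p = 1.20e-07 by limma) for freezing; -0.66 ± 0.13 for fasting). MurERV4_19-int 3.02 kb from Zfp790, a zinc finger gene (chr7:29812953-29813153), had 55.6 to 109.6 (median 82.7) in frozen and 171 to 187 (median 173) in fresh libraries (-1.11 ± 0.11 (SE; adjusted p = 1.84e-07 by limma)). RMER12C far from any gene, 1043 kb from Ncam2 (chr16:82243940-82244140), had 38.4 to 81.0 (median 56.7) and 88.9 to 158 (median 124) (-1.09 ± 0.09 (SE; adjusted p = 3.75e-08 by limma)). ERVB7_2B-LTR_MM near Mak16, RLTR17 near Oscar and RLTR25B near Gclm, the regulatory subunit gene of glutathione synthesis, differed by -1.01 ± 0.11, -0.93 ± 0.13 and -0.91 ± 0.10. In fasting these 3 differed by -0.10 to 0.17 and were not called with the preparations averaged, while in fresh liver alone RLTR17 near Oscar was called lower (-0.38, adjusted p = 0.0477 by limma).

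**Figure D5:**
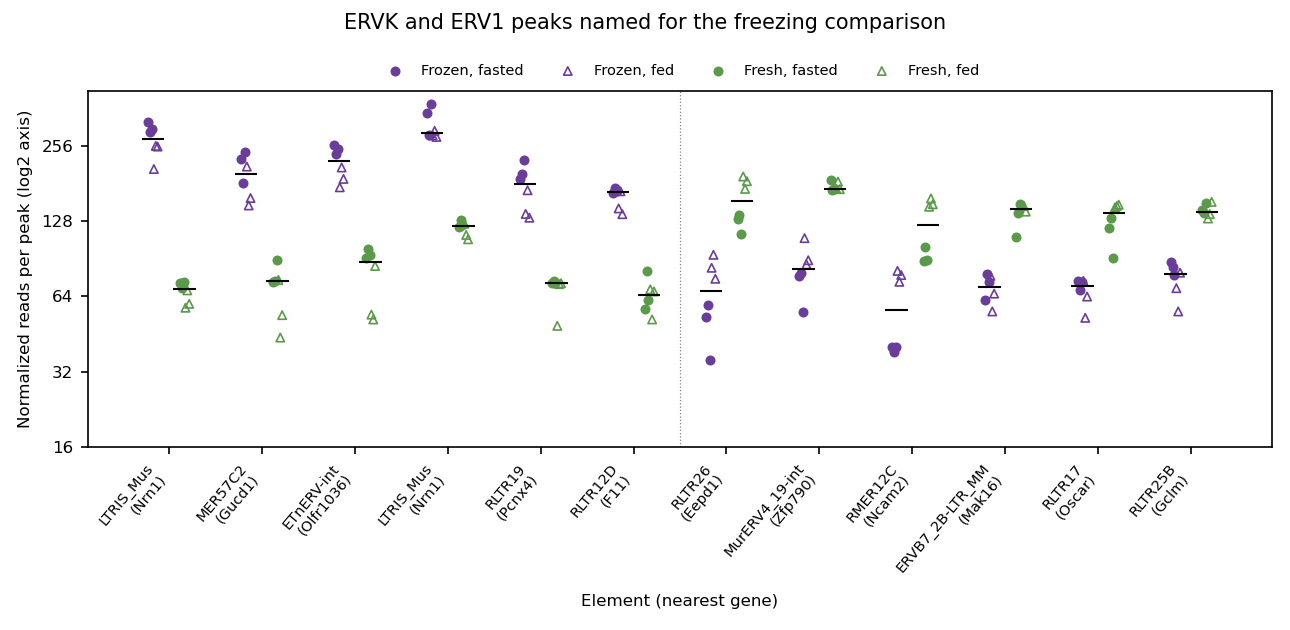
Normalized reads per peak (log2 axis) in the 6 frozen (purple, left of each pair) and 6 fresh (green) libraries at the 12 peaks named for the freezing comparison, with filled circles for fasted and open triangles for fed mice and a black line at the median of the 6. The 6 peaks left of the dotted line were higher and the 6 right of it lower in frozen liver, with no overlap at any of them.

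By element name, several of the larger names were called mostly in 1 direction by freezing, where 28.7% of all peaks were higher and 32.8% lower. MMVL30-int was lower in frozen liver at 10 of 16 peaks and higher at none (median -0.33), ERVB7_2B-LTR_MM lower at 12 and higher at 1 of 18 (median -0.50), RMER6A lower at 11 of 15 (median -0.49) and RMER12 lower at 9 and higher at 1 of 11 (median -0.60). RLTR13D3A1 was higher at 8 and lower at 3 of 14 (median 0.30), ERVB7_1-LTR_MM higher at 6 and lower at 1 of 13 (median 0.20) and MER34-int higher at all 5 of its peaks (median 0.44). Under quantile normalization 1 MMVL30-int peak was called higher and 9 lower. Median levels of ERVB7_2B-LTR_MM (70.1), RMER6A (83.8) and RMER12 (67.9) were below the members' median of 87.0, as was that of ERVB7_1-LTR_MM (78.6). MMVL30-int (90.3), RLTR13D3A1 (143) and MER34-int (216) were above it. Of ERVK members at or below that median 58.1% were lower and 8.73% higher in frozen liver. The part of level in the counts by name was not tested.

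Genes linked to the control of endogenous retroviruses or to DNA methylation, Tet2 and Tet3 among them, were looked at through the peaks annotated to them. Of the listed genes 38 had 127 peaks, of which 15 rose and 22 fell with fasting (median 0.06), where 16.5% and 18.1% of all peaks did so. Within 1 kb of a gene start they had 66 peaks, with 9 higher and 2 lower (median 0.11), where 19.7% of all such peaks rose and 4.59% fell (median 0.12). The peak at the start of Sirt6, a deacetylase that also represses LINE-1 elements, had 55.0 ± 6.20 normalized reads in fasted and 33.5 ± 6.76 in fed mice (SD, n = 3 each), a difference of 0.72 ± 0.20 (adjusted p = 0.0217) by limma. The start peak of Dnmt3a, a de novo DNA methyltransferase, had 197 ± 6.72 in fasted and 164 ± 12.7 in fed mice, a difference of 0.26 ± 0.08 (adjusted p = 0.0271). Smchd1, a chromatin protein of X inactivation and repeat silencing, differed by 0.24 ± 0.07 (adjusted p = 0.0302). The start peak of Trim28 differed by 0.20 ± 0.08 (adjusted p = 0.0829) and was not called. Accessibility at a start is not the expression of the gene, which was not analysed here. The 4 genes were chosen for naming after their values were seen.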

How the data were processed

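Per the labels' protocols, each reaction took about 25000 nuclei on beads, with 30 min of transposition at 37 °C and 12 cycles of PCR. HOMER, DESeq2, SAMtools, BWA 0.7.5a-r405 and the build mm10 appear in the submitters' processing notes, with no roles. The sources used here do not say how peaks were called, duplicates treated or reads placed that match several repeats, which bears most on retroviral elements. The authors deposited a signal table of 52530 merged peaks, with reads per peak normalized by 1 size factor per library (all values are whole multiples of 1 step within 1e-06). Count models were not used, because the deposited values are normalized. The read numbers given here are values divided by that step. For each preparation the authors deposited p-values, adjusted, and log2 fold changes of fasting, quoted as their table.

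Log2(value + 1) was fitted over all peaks with limma 3.58.1 in R 4.3.3, with a trended prior and two-sided tests. P-values were adjusted by Benjamini-Hochberg over all peaks and called under 0.05. The fasting test took the average of the 2 libraries of a mouse, and was repeated within each preparation. Freezing was tested over 12 libraries with feeding state as covariate, without pairing the 2 libraries of a mouse. Column letters (A to C), not mouse numbers, name the libraries: same-letter fresh and frozen columns deviated together (r of 0.329 to 0.640 in 6 of 6 pairs, against at most 0.0213 for other letters), so a letter is taken as 1 mouse. The study gives 3 mice per feeding state as the replicates. When 200 of 52530 peaks were changed in simulated data, the averaged fasting test recovered 26% of 1.25-fold, 96% of 1.5-fold and 100% of 2-fold changes, and 3 unchanged peaks were called. The simulated libraries were drawn independently, with the same dispersion for every peak and nothing shared by the 2 libraries of a mouse. In the real data these libraries deviate together and far more peaks are called, so the simulated shares need not hold there. Counting errors do not cover PCR copies, which are not independent molecules.

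Members, gene lists and the naming rule were chosen with earlier results of these data known. Named peaks are the 6 higher and 6 lower called members of largest difference whose libraries do not overlap and whose level is above the members' median, at most 2 per element name. To these come the 5 of highest level, the called member nearest to a gene start of the deposited annotation in each direction, those at the listed genes, and element names with 5 or more members. RLTR48A, RLTR44C, the other IAP1-MM_LTR peaks, single VL30 peaks and the peaks at RefSeq starts were added after their values were seen. RefSeq windows (GRCm38.p6) were matched to members by position, and figures were drawn with matplotlib 3.10.9.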

Additional observations from a re-analysis of the deposited data

How the results depend on the processing

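No named peak that was called changed direction under any alternative run. Of the medians, that of ERV1 for fasting (0.04) was -0.09 under near-start scaling, that of ERV1 for freezing (-0.02) was 0.06 under quantile normalization and 0.08 without the lowest 25% of peaks, and that of the members for freezing (-0.15) was 0.03 there. Near-start scaling also turned the ERV1 fasting median in fresh (0.01) and frozen liver (0.06) to -0.11 and -0.07. For members called higher in fasted mice (118), the count was 72 without the lowest 25% of peaks (which leaves 546 members), 62 under near-start scaling and 65 to 109 with 1 mouse left out. For members called lower (236), it was 91 without the lowest peaks and 159 to 232 with 1 mouse left out. In fresh liver the higher count (71) was 42 without the lowest peaks, 43 under that scaling and 41 to 66 without 1 mouse, and the lower count (208) was 71 and, without 1 mouse, 144 to 208. In frozen liver the higher count (95) was 62, 46 and 53 to 87, and the lower count (188) was 78 without the lowest peaks and 110 to 188 without 1 mouse. For freezing, the lower count (358) was 155 without the lowest peaks. Fewer members are tested without the lowest peaks; for the other settings the cause was not tested. With the letter as replicate block, freezing gave 229 higher and 404 lower members and the interaction 0 (130 at an unadjusted p under 0.05), and 12 libraries with preparation as covariate and no replicate block gave 166 higher and 286 lower for fasting. A pseudocount of 8 gave 122 and 238. Over the named peaks, direction and side of the threshold held in 1090 results without 1 mouse, with 39 calls lost and 11 gained, and in 818 under the other settings, with 13 lost and 18 gained. These results include the interaction, where no peak was called, and most named peaks were chosen for a large called difference without overlap. Such a choice favours results that hold, so these totals do not measure how firm the calls of other members are. Restricting members to sequence that is unique in the genome was not run, since no genome of this build was used here. Depth limits the weak members most, since the median member had 36 reads in the smallest library.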

Other observations

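Internal parts of retroviral families with young copies are given by name, and differences between the names were not tested. MuLV-int, the body of murine leukaemia viruses, had 1 of 7 peaks lower and none higher in fasted mice (median -0.03), and RLTR6-int had 3 of 6 lower and 1 higher (median -0.29). MMERGLN-int had 1 of 5 higher (median 0.37) with differences from 0.07 to 1.47, ETnERV-int 1 of 7 higher (median 0.18) and MMERVK10C-int 2 of 6 higher (median 0.09), and none of the 3 had a lower call. MYSERV6-int had 3 of 9 lower and 1 higher, with differences from -1.74 to 1.27. In frozen liver MMERVK10C-int was higher at 3 and lower at 2 of 6 peaks (median 0.44), and RLTR6-int lower at 4 of 6 with none higher (median -0.48). Over all peaks 16.5% were called higher and 18.1% lower by fasting, and 28.7% and 32.8% by freezing. These element names have few peaks, so counts such as 1 of 5 or 1 of 7 are descriptions. Reads shared between copies cannot be told apart here.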
